A study of Mus musculus with 24 samples.

Results

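The 8 genes described here, Dcdc2a, Sntg1, Slc13a5, Slc5a1, Adgrg6, Ak9, Pkd1l2 and Ephx2, are among those whose newly made RNA was most reduced in mouse embryonic stem cells that lack Alkbh5. They are 8 of the 56941 genes in the deposited table and 8 of the 22448 with enough RNA to be tested. They were chosen by their level in KO cells, which lay far below that in WT cells, so this difference is given below as a description and supports nothing further. RNA made during a short labelling window was measured in the stem cell line E14TG2a. The groups were Alkbh5 KO, in which the gene is knocked out, Alkbh5 del-cIDR, in which the protein lacks its C-terminal intrinsically disordered region, and WT. Each genotype was labelled with 1 mM EU (5-ethynyl uridine, a uridine analog built into growing transcripts) for 10, 20, 40 or 60 min and sequenced as 2 libraries per time, 24 libraries in all. All groups were kept in medium containing serum, LIF and 2 inhibitors, PD0325901 against MEK and CHIR99021 against GSK3, and an equal spike-in of labelled Drosophila RNA went into each sample before capture. The labels name no separate clones, so each genotype is 1 line as far as they tell, and replicates may be dishes of that line. P-values therefore measure the spread between these samples only.

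ALKBH5 is an enzyme that removes the methyl group of N6-methyladenosine (m6A), the most common internal mark of messenger RNA, which methyltransferases place at short motifs such as GGACT. The mark is known to affect splicing, export and decay of transcripts, and a disordered region is a stretch of protein without a fixed fold that often mediates contacts with other molecules. EU capture reads out RNA shortly after it is made, so a level reflects synthesis and, at longer labelling, also processing and loss. The 8 genes do not belong to 1 pathway. Slc13a5 and Slc5a1 encode sodium-coupled transporters, of citrate and of glucose. Adgrg6 encodes an adhesion G protein-coupled receptor needed for myelination by Schwann cells, and Pkd1l2 a large membrane protein of the polycystin-1 family. Dcdc2a encodes a microtubule-binding protein with doublecortin domains, and Sntg1 encodes gamma-1-syntrophin, an adaptor of the dystrophin complex known from brain. Ak9 encodes a nucleotide kinase of the adenylate kinase family, and Ephx2 encodes soluble epoxide hydrolase, which turns epoxides of fatty acids into diols. These genes lie on 7 chromosomes, with Adgrg6 and Ak9 both on chromosome 10.

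RefSeq promoters (GRCm38.p6, 250 bases before to 50 after the start) were at hand for 6 of the 8 genes, with 2 for Slc13a5; none was used for Sntg1 and Ephx2. Shown in the gene's own direction, with every CG dinucleotide in capitals, are the promoter of Dcdc2a, the gene with the largest difference (chr13:25055754-25056053, plus strand), that of Adgrg6, which has the most CG (chr10:14544987-14545286, minus strand), that of Ak9, whose start faces away from a close neighbour (chr10:41303684-41303983, plus strand), and that of Pkd1l2, which has the fewest CG (chr8:117082400-117082699, minus strand).
Dcdc2a: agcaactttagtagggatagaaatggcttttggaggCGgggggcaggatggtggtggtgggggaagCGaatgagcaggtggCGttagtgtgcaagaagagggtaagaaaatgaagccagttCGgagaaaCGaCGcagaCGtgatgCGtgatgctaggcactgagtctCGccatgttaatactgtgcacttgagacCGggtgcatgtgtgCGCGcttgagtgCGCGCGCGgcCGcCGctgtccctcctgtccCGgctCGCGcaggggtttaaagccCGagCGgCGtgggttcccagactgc
Adgrg6: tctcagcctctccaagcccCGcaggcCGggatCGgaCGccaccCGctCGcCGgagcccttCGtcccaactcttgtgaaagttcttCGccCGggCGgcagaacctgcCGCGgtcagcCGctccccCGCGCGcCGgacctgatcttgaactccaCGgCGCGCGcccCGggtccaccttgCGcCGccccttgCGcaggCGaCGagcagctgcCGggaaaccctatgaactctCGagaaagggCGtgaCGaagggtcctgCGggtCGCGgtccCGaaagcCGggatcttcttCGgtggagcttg
Ak9: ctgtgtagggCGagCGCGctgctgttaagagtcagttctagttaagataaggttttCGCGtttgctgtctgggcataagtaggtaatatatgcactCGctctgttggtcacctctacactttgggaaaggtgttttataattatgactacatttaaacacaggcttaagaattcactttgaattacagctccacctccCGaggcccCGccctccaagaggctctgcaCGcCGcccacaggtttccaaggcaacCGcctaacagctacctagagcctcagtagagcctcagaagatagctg
Pkd1l2: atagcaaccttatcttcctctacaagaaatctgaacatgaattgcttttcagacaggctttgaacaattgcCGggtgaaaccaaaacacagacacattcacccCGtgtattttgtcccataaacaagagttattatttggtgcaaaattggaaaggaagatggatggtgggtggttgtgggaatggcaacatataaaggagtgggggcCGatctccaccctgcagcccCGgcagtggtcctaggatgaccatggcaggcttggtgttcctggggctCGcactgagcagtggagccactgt
The promoter of Adgrg6 held 38 CG, that of Dcdc2a 24 and those of Slc13a5 25 and 17, against a median of 7 and quartiles of 3 and 20 over 32851 mouse promoters of the same length. The promoters of Ak9 and Slc5a1 held 11 and 10, and that of Pkd1l2 held 5. Thus 6 of the 7 promoters held more CG than the median promoter, and that of Pkd1l2 lay between the lower quartile and the median. Short motifs were searched on both strands. GGGCGG occurred in the promoters of Slc13a5 (both), Adgrg6 and Ak9, and in 35.7% of all promoters, and TATAAA in those of Ak9 and Pkd1l2, and in 13.6% of all. CCAAT occurred in 1 promoter of Slc13a5 and in that of Pkd1l2 (37.4% of all), and CACGTG in that of Slc5a1 (7.15% of all). None of these motifs was in the promoter of Dcdc2a, and none was in all 7 promoters.

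The libraries held 3129083 to 22159864 reads over genes and 6037 to 23382 spike-in reads. A level below is a gene's reads after each library was brought to 11714 spike-in reads. Differences between genotypes are log2 differences of level + 1 after each library was centred on its median tested gene, which takes off whatever all genes share. Percentages of WT below are these centred differences taken back from log2, and are not ratios of the levels printed. Without that centring, the median gene was 0.30 above WT in KO and 0.15 above WT in del-cIDR. Alkbh5 itself had 340 to 1989 reads in the KO libraries, 242 to 2269 in the del-cIDR libraries and 361 to 3198 in the WT libraries, and its difference was −0.60 ± 0.05 (SE; limma, adjusted p = 4.47e-09) for KO minus WT and −0.46 ± 0.05 (7.11e-07) for del-cIDR minus WT. Reads summed over the whole gene check neither deletion. The 10 embryonic stem cell markers were all well measured, with a summed level of 24074 to 99703 in KO, 11695 to 102741 in del-cIDR and 15894 to 97696 in WT libraries.

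Among the transporters, the citrate transporter gene Slc13a5 (ENSMUSG00000020805, chromosome 11) had levels in KO libraries of 72.4 and 86.7 (10 min), 119 and 124 (20 min), 161 and 164 (40 min) and finally 211 and 176 (60 min). Its levels in del-cIDR libraries were 235 and 275 (10 min), 749 and 1504 (20 min), 1186 and 1797 (40 min) and finally 1243 and 1517 (60 min). In WT libraries they were 312 and 274 (10 min), 561 and 511 (20 min), 711 and 1081 (40 min) and finally 735 and 1006 (60 min). The KO libraries were the low ones at every labelling time and overlapped neither of the other genotypes, and the del-cIDR libraries lay above WT from 20 min on but not at 10 min on this scale. Relative to the median gene, Slc13a5 was 2.45 ± 0.06 lower in KO than in WT on the log2 scale (KO minus WT −2.45), which leaves 18.3% of WT on that scale.

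The glucose transporter gene Slc5a1 (SGLT1 in textbooks, ENSMUSG00000011034, chromosome 5) had levels in KO libraries of 48.5 and 42.5 (10 min), 65.0 and 101 (20 min), 134 and 118 (40 min) and finally 267 and 213 (60 min). Its levels in del-cIDR libraries were 54.2 and 63.3 (10 min), 238 and 401 (20 min), 461 and 536 (40 min) and finally 527 and 673 (60 min). In WT libraries they were 154 and 108 (10 min), 265 and 253 (20 min), 478 and 773 (40 min) and finally 747 and 1030 (60 min). The KO libraries lay below both other genotypes at every time, and at 10 min the del-cIDR libraries lay below both WT libraries. The difference for KO minus WT was −2.13 ± 0.08, or 22.8% of WT relative to the median gene.

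The receptor gene Adgrg6 (ENSMUSG00000039116, chromosome 10) had levels of 18.0 to 91.9 in the KO libraries, 41.7 to 606 in the del-cIDR libraries and 60.1 to 462 in the WT libraries, the lowest values being those of short labelling. Its difference for KO minus WT was −2.44 ± 0.10, or 18.4% of WT relative to the median gene. The polycystin-family gene Pkd1l2 (ENSMUSG00000034416, chromosome 8) had levels in KO libraries of 17.4 and 21.3 (10 min), 17.8 and 11.6 (20 min), 57.1 and 52.8 (40 min) and finally 65.6 and 85.9 (60 min). Its levels in del-cIDR libraries were 43.2 and 48.7 (10 min), 145 and 314 (20 min), 252 and 327 (40 min) and finally 266 and 384 (60 min). In WT libraries they were 48.1 and 26.9 (10 min), 96.7 and 100 (20 min), 139 and 279 (40 min) and finally 212 and 304 (60 min). The KO libraries were again the low ones at each time, and the lowest value of all, at 20 min, rests on 6 reads. The difference for KO minus WT was −2.09 ± 0.12, or 23.5% of WT relative to the median gene. Genes of chromosome 8 as a whole lay higher in KO than in WT, with a median of 0.33 over 1108 tested genes, while the medians of the other chromosomes that hold these 8 genes were between −0.05 and 0.00.

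Among the genes of the cytoskeleton and the membrane scaffold, Dcdc2a (ENSMUSG00000035910, chromosome 13) had levels in KO libraries of 25.1 and 34.3 (10 min), 44.5 and 34.9 (20 min), 65.8 and 72.6 (40 min) and finally 75.2 and 71.3 (60 min). Its levels in del-cIDR libraries were 135 and 188 (10 min), 444 and 697 (20 min), 858 and 967 (40 min) and finally 606 and 887 (60 min). In WT libraries they were 156 and 113 (10 min), 248 and 247 (20 min), 382 and 694 (40 min) and finally 413 and 598 (60 min). The KO libraries did not reach the lowest WT library of any time, so that even 60 min of labelling in KO gave less than 10 min in WT. The difference for KO minus WT was −2.90 ± 0.08, the largest of the 8, or 13.4% of WT relative to the median gene.

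The syntrophin gene Sntg1 (ENSMUSG00000025909, chromosome 1) had levels in KO libraries of 19.6 and 19.6 (10 min), 27.4 and 66.0 (20 min), 115 and 100 (40 min) and finally 162 and 166 (60 min). Its levels in del-cIDR libraries were 48.3 and 55.5 (10 min), 384 and 577 (20 min), 954 and 1009 (40 min) and finally 789 and 1109 (60 min). In WT libraries they were 149 and 75.6 (10 min), 177 and 132 (20 min), 584 and 877 (40 min) and finally 832 and 1057 (60 min). The KO libraries were lowest at every time, and the del-cIDR libraries lay below WT at 10 min and above WT at 20 min. The difference for KO minus WT was −2.67 ± 0.12, or 15.8% of WT relative to the median gene.

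Of the enzyme genes, the nucleotide kinase gene Ak9 (ENSMUSG00000091415, chromosome 10) had levels of 33.8 to 154 in the KO libraries, 53.6 to 676 in the del-cIDR libraries and 51.8 to 691 in the WT libraries. Its difference for KO minus WT was −2.12 ± 0.10, or 23.0% of WT relative to the median gene. The epoxide hydrolase gene Ephx2 (ENSMUSG00000022040, chromosome 14) had levels of 25.1 to 112 in the KO libraries, 46.8 to 516 in the del-cIDR libraries and 53.9 to 358 in the WT libraries. Its difference for KO minus WT was −2.07 ± 0.13, or 23.8% of WT relative to the median gene. The ranges of KO and WT overlap for both genes only because they span labelling times.

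**Figure D1:**
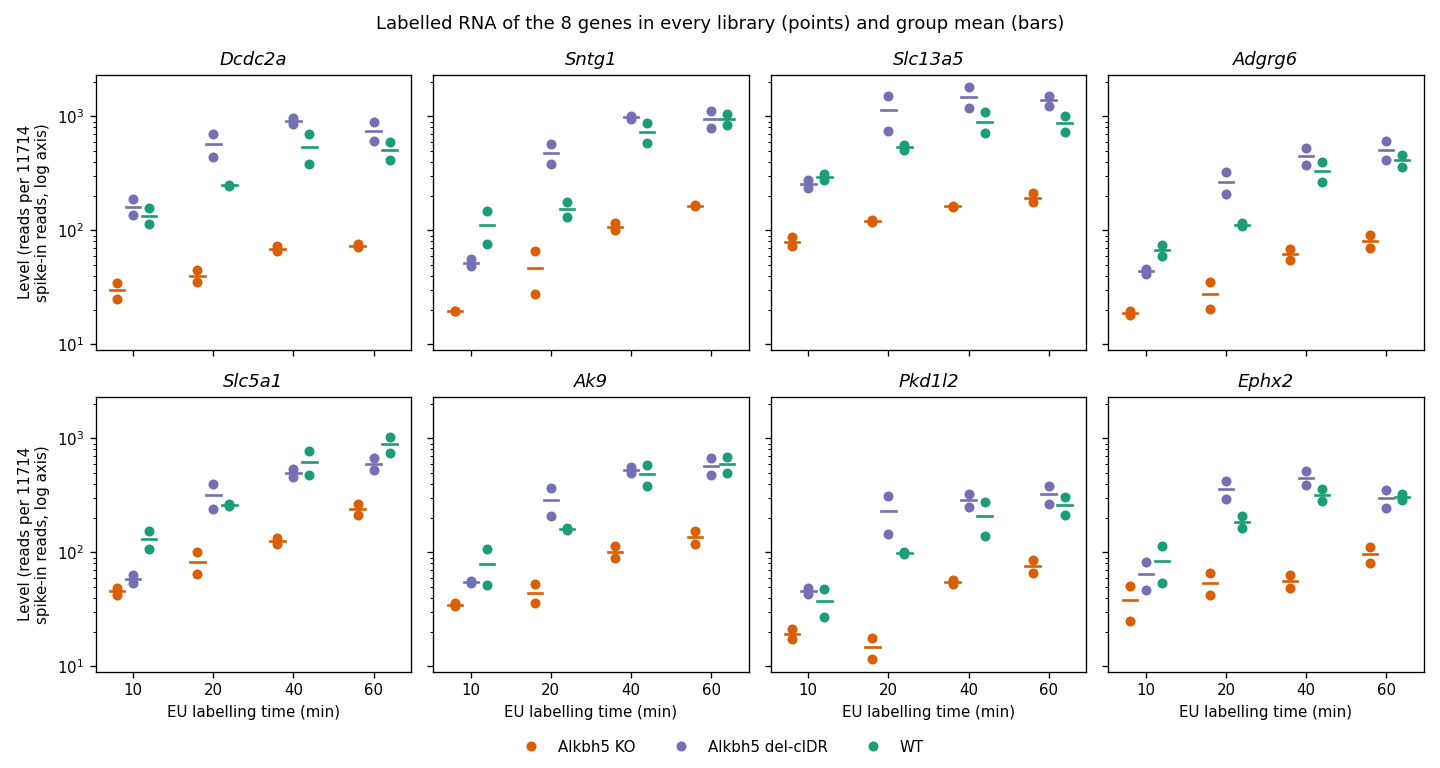
Level of each gene (reads per 11714 spike-in reads, log axis) against EU labelling time in Alkbh5 KO, Alkbh5 del-cIDR and WT libraries. Points are libraries, 2 per group, and bars are group means; in every panel both KO points lie below both WT points at each time, as in Dcdc2a, where KO spans 25.1 to 75.2 and WT 113 to 694.

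For all 8 genes both KO libraries lay below both WT libraries at all 4 labelling times, in levels and in centred levels, and 7.53% of all tested genes showed this in centred levels. All 8 also passed limma's test as lower in KO, which 16.7% of tested genes did (15.4% were higher); since this difference chose them, nothing is read from these counts. On the spike-in scale as deposited the differences were smaller, from −2.60 for Dcdc2a to −1.76 for Ephx2, and over all genes 6188 were then higher and 652 lower in KO in place of 3462 and 3755. With libraries centred on genes outside chromosomes 4, 6, 8, 11 and X, 4259 were higher and 3060 lower, and the 8 genes lay between −2.86 and −2.03.

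The 8 genes were not simply the 8 largest falls. Among the 62 genes (0.276% of those tested) called lower by more than 2 on the log2 scale, they held ranks 3 (Dcdc2a), 11 (Sntg1), 18 (Slc13a5), 19 (Adgrg6), 44 (Slc5a1), 45 (Ak9), 53 (Pkd1l2) and 56 (Ephx2). The 48 other genes above Ephx2 were mostly of low level: 5 of them, Gm48914, Gm46447, Nlrp9c, Gm48023 and 1 ID without a name, reached the mean level of 138 of the lowest of the 8, Pkd1l2, and 43 did not. Nlrp4a, of a family expressed in oocytes, lay just under that level at 136, with a difference of −3.01. Among the 11095 genes that reached 138 in mean level, Ephx2 ranked 13. Just inside the end of the list were Pkd1l2 at −2.09 and Ephx2 at −2.07, and just outside were Gm44763 at −2.07, an ID without a name at −2.06 and Vmn2r79, a vomeronasal receptor gene, at −2.06.

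An F test in limma on the 4 differences asked whether the KO difference changed with the length of labelling. It uses the same libraries as the choice of the genes but not their mean. None of the 8 genes passed, with adjusted p from 0.332 (Pkd1l2) to 0.930 (Dcdc2a), nor did almost any other gene: 1 of 22448 did (0.00445%), while 2245 had an unadjusted p under 0.05. For Dcdc2a the differences for KO minus WT were −2.87, −2.82, −2.85 and −3.08 from the shortest to the longest labelling, and for Slc13a5 they were −2.59, −2.33, −2.40 and −2.48. The values of Pkd1l2 varied most, at −1.59, −2.89, −1.80 and −2.08, and those of Sntg1 were −3.10, −2.02, −2.70 and −2.84. Without KO library A of 20 min, Sntg1 passed (adjusted p = 0.0422) and 56 of all genes did, and without WT library A of 10 min 121 genes did. The slope of the centred level per doubling of labelling time differed between KO and WT by −0.24 ± 0.10 in Ak9 (adjusted p = 0.355) and by −0.14 ± 0.13 in Ephx2, and in the other 6 genes by −0.07 to 0.04. No slope difference of the 8 genes passed, with standard errors of 0.06 to 0.13. Over all genes 8 passed (0.0356%, all higher), a count that was 543 without WT library A of 10 min, and 2650 had an unadjusted p under 0.05. At 10 min of labelling, the shortest window measured, the differences of the 8 genes ran from −3.10 in Sntg1 to −1.59 in Pkd1l2. These values are part of the mean that chose the genes and are given as a description. Both tests passed so few of all genes that they cannot show that a difference is constant over time.

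The genes differed among themselves in how their RNA built up. In WT, labelled RNA of Sntg1 rose against the median gene by 0.53 ± 0.08 per doubling of labelling time (limma, adjusted p = 1.7e-05), and that of Ak9 by 0.41 ± 0.07, Slc5a1 by 0.29 ± 0.06, Pkd1l2 by 0.28 ± 0.09 and Adgrg6 by 0.27 ± 0.07. Slc13a5 fell by 0.17 ± 0.04 per doubling (adjusted p = 0.00399). Dcdc2a at −0.01 ± 0.06 and Ephx2 at −0.02 ± 0.09 did not pass. So 5 of 8 rose and 1 fell in WT, where 26.1% of tested genes rose and 9.68% fell. In KO the slopes of Sntg1 (0.56 ± 0.08), Slc5a1 (0.25 ± 0.06) and Adgrg6 (0.21 ± 0.07) passed as rising, against 20.7% of tested genes, and that of Slc13a5 (−0.13 ± 0.04) passed as falling, against 7.20% (27.9% in both directions). In del-cIDR, Sntg1 (0.62 ± 0.08), Adgrg6 (0.34 ± 0.07), Ak9 (0.31 ± 0.07) and Slc5a1 (0.27 ± 0.06) rose, against 30.5% of tested genes. Sntg1 had the steepest slope of the 8 in all 3 genotypes. Between del-cIDR and WT no slope of the 8 passed as different, with adjusted p from 0.368 (Pkd1l2, −0.23 ± 0.13) upward, where 1.87% of tested genes passed, 1.46% as higher.

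**Figure D2:**
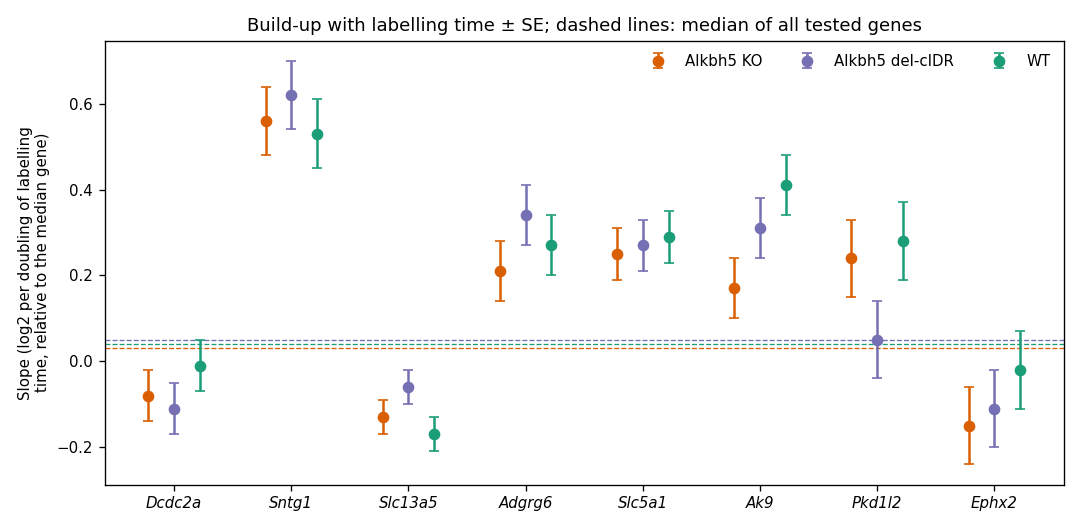
Slope of the centred log2 level per doubling of EU labelling time (vertical axis, log2 units) for each gene in Alkbh5 KO, Alkbh5 del-cIDR and WT; points are limma estimates, bars are ± SE, and dashed lines are the median of all tested genes. Sntg1 is highest in all 3 genotypes, at 0.56, 0.62 and 0.53, and Slc13a5, Dcdc2a and Ephx2 lie below 0.

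The deposited values themselves, which are log2 ratios to 10 min of the same genotype, do not show the fall in KO. In the authors' deposited table the ratio at 60 min was 1.30 in KO, 2.21 in del-cIDR and 1.91 in WT for Dcdc2a, where the median tested gene had 1.67, 2.72 and 2.09 in the same columns. For Sntg1 the authors' deposited table gives 3.06 in KO, 4.19 in del-cIDR and 3.07 in WT at 60 min, the highest of the 8 in each genotype. Over the 8 genes the values at 60 min in the authors' deposited table ran from 1.28 to 3.06 in KO, from 2.21 to 4.19 in del-cIDR and from 1.57 to 3.07 in WT. A gene reduced alike at all times keeps its ratio to 10 min, and the differences between genotypes appear only once the reads per library are worked out.

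**Figure D3:**
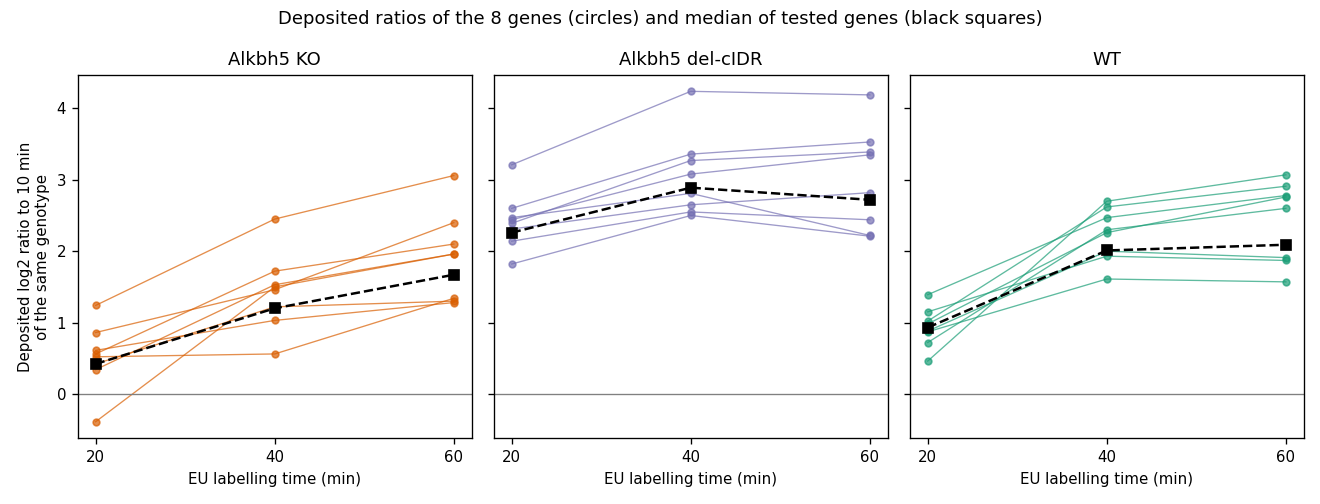
Deposited log2 ratio to 10 min (vertical axis) at 20, 40 and 60 min of labelling in Alkbh5 KO, Alkbh5 del-cIDR and WT, as the authors' pooled values; circles are the 8 genes and black squares the median tested gene. The 8 genes lie on both sides of the median gene in each genotype, from 1.28 to 3.06 around 1.67 in KO at 60 min and from 1.57 to 3.07 around 2.09 in WT.

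A fall of that size was not seen in del-cIDR cells. In del-cIDR cells 3 of the 8 genes were higher than in WT, where 11.4% of tested genes were, 1 was lower, where 16.4% were, and 4 did not pass (limma, adjusted p under 0.05, 27.8% of tested genes in both directions). On the spike-in scale the split over all genes turned, to 1836 higher and 590 lower in place of 2559 and 3692. Dcdc2a was higher by 0.53 ± 0.08 (adjusted p = 2.9e-05) and Slc13a5 by 0.38 ± 0.06 (adjusted p = 4.32e-05), each with both del-cIDR libraries above both WT libraries at all 4 times in centred levels, as in 3.71% of tested genes. In the levels per spike-in read printed above, both genes overlapped at 10 min. Pkd1l2 was higher by 0.41 ± 0.12 (adjusted p = 0.0151), with no overlap of centred levels at 3 of 4 times, though the levels per spike-in read overlapped at 10, 40 and 60 min. The median of genes on its chromosome, 8, was −0.13 in this comparison. Its call was lost without del-cIDR library B of 20 min (0.35, adjusted p = 0.0538) and without the 10 min libraries (0.27, adjusted p = 0.147). Slc5a1 was lower, at −0.60 ± 0.08 (adjusted p = 6.13e-06), with both del-cIDR libraries below both WT libraries at all 4 times in centred levels, as in 5.91% of tested genes. On the spike-in scale it was not past the threshold (−0.43, adjusted p = 0.0655), and its levels overlapped at 20 and 40 min. Adgrg6 (0.16 ± 0.10), Sntg1 (0.09 ± 0.12), Ephx2 (0.09 ± 0.13) and Ak9 (−0.05 ± 0.10) did not pass. The median of the 8 was 0.13, and that of all tested genes −0.02. This comparison shares its WT libraries with the one that chose the genes. Set against KO, the del-cIDR levels were higher by 1.53 ± 0.08 in Slc5a1 and by 2.07 to 3.44 in the other 7 genes, beside 21.9% of tested genes called higher. That difference shares the KO libraries with the choice of the genes and is given without a test.

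Sntg1 was the one gene of the 8 whose del-cIDR difference passed as dependent on labelling time (limma F test, adjusted p = 0.038), where 7.82% of tested genes passed. Its differences for del-cIDR minus WT were −0.52, 0.88, 0.08 and −0.08 from the shortest to the longest labelling. The call was lost in 13 of 24 fits that left out 1 library and without the 10 min libraries (adjusted p = 0.15). The other 7 genes had adjusted p of 0.494 (Slc13a5) or more.

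**Figure D4:**
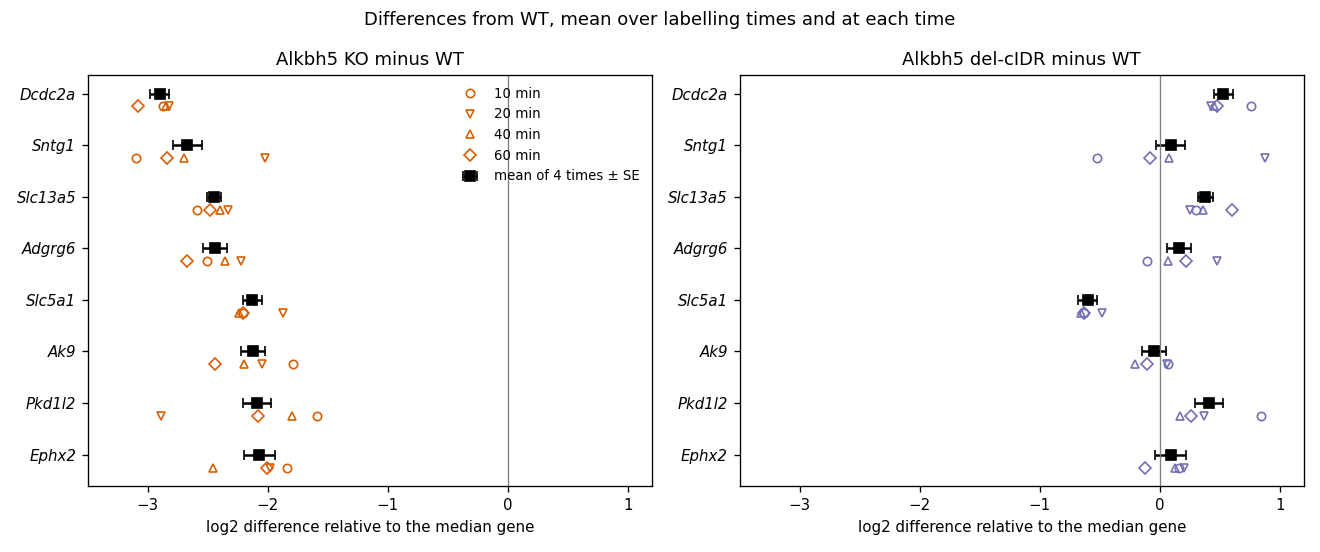
Log2 difference relative to the median gene (horizontal axis) for Alkbh5 KO minus WT (left) and Alkbh5 del-cIDR minus WT (right); squares are means over 4 labelling times with ± SE and open symbols are the difference at each time. In KO the means run from −2.90 to −2.07, and in del-cIDR from −0.60 (Slc5a1) to 0.53 (Dcdc2a).

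The genes next to the 8 genes did not share a fall of that size. Of the 16 nearest tested genes, 1 on each side of each gene, 8 were lower in KO than in WT, where 16.7% of tested genes were, 2 were higher and 6 did not pass (limma), with a median of −0.23 and a range of −1.54 to 0.41. On the spike-in scale 3 (18.8%) were lower and 3 (18.8%) higher, with a median of 0.08. Of all 22448 tested genes, 652 were lower and 6188 higher on that scale. Centred on genes outside chromosomes 4, 6, 8, 11 and X, 6 of the neighbours were lower and 2 higher. The closest is Fig4, a phosphoinositide phosphatase gene whose start lies 720 bases from that of Ak9 on the opposite strand (GENCODE M21, GRCm38), so that most of the Ak9 promoter shown above lies between both starts. Fig4 had a mean level of 1799 ± 784 in KO and 1721 ± 982 in WT (SD over 8 libraries of 4 times each). Its difference was −0.13 ± 0.04 (adjusted p = 0.0121), which was 0.18 on the spike-in scale (adjusted p = 0.359) and −0.09 with the other centring (0.086), beside −2.12 for Ak9. Gcsh, a glycine cleavage gene 2142 bases from Pkd1l2, was at −0.09 ± 0.08 and did not pass. The largest falls next to the 8 genes were those of Chrna2, an acetylcholine receptor subunit gene 10539 bases from Ephx2 (−1.54 ± 0.38, at the low mean level of 13.2), the noncoding Gm30414 far from Sntg1 (−1.01 ± 0.21) and Xaf1, 34407 bases from Slc13a5 (−0.98 ± 0.09). Chrna2, Gm30414 and Xaf1 also passed on the spike-in scale, at −1.24, −0.70 and −0.68. Gulo, on the other side of Ephx2, was at −0.66 ± 0.20 (limma, adjusted p = 0.0117). On the spike-in scale Gulo was at −0.35 (limma, adjusted p = 0.232). Zbtb24 beside Ak9 (−0.36 ± 0.05), Hivep2 beside Adgrg6 (−0.27 ± 0.10) and Mrs2 beside Dcdc2a (−0.23 ± 0.05) were lower by less, and on the spike-in scale none of the 3 passed, with Zbtb24 at −0.05 (adjusted p = 0.784), Mrs2 at 0.08 and Hivep2 at 0.03. Ywhah beside Slc5a1 (0.14 ± 0.05) was among the higher ones.

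Genes annotated inside the 8 genes moved with them in part. Of 5 tested genes that start inside one of the 8, 3 were lower in KO on all 3 scales. Of all tested genes 16.7% were lower relative to the median gene. The pseudogene Gm47473 within Ak9 was at −2.76 ± 0.35, with a level of 2.77 ± 2.12 in KO and 28.1 ± 23.3 in WT (SD, 8 libraries of 4 times each). The pseudogenes Gm15936 and 5033423K11Rik, both within Slc5a1, were at −1.96 ± 0.20 and −1.60 ± 0.34, with low mean levels of 37.0 and 14.3. Gm10335 within Adgrg6 (−0.28 ± 0.13, adjusted p = 0.0967) and Gm15452 within Sntg1 (−0.40 ± 0.23, adjusted p = 0.201) did not pass. All 5 are pseudogenes, whose reads may belong to the gene around them or to a near copy, and the use of strand in counting is not given in the sources used here.

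**Figure D5:**
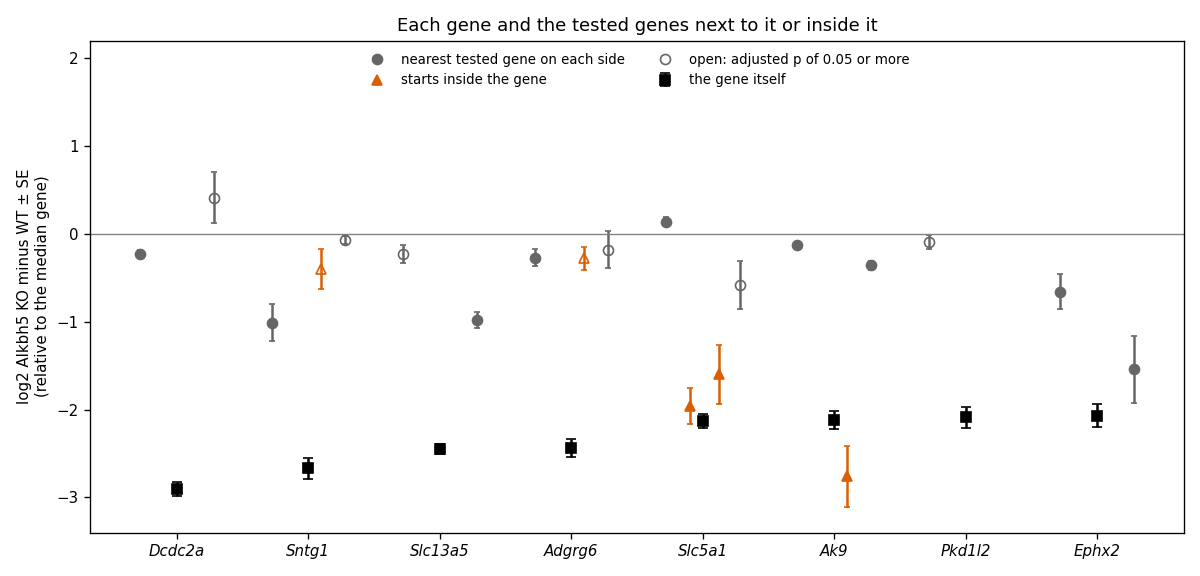
Log2 difference of Alkbh5 KO minus WT relative to the median gene (vertical axis, ± SE) for each of the 8 genes (black squares), nearest tested genes at its sides (grey circles) and genes that start inside it (orange triangles); open symbols did not pass. The grey circles lie between −1.54 and 0.41, above all squares, while 3 of the 5 triangles lie at or below −1.60.

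Relatives of the 8 genes, listed by family with earlier results of these data known, were mostly unlike them. Of 87 relatives 63 were tested, of which 13 (20.6%) were lower and 7 (11.1%) higher in KO, beside 16.7% and 15.4% of all tested genes, with a median of −0.05. On the spike-in scale 6 (9.52%) were lower and 16 (25.4%) higher, where 652 of all 22448 tested genes were lower and 6188 higher. The 6 that were lower on both scales were Slc13a3 (−1.53 ± 0.29) and Slc13a4 (−1.01 ± 0.22), transporters of dicarboxylates and of sulfate, the SLC5 transporter gene Slc5a12 (−1.24 ± 0.32), the doublecortin-domain kinase gene Dclk3 (−1.01 ± 0.23), the microsomal epoxide hydrolase gene Ephx1 (−0.73 ± 0.08) and the cadherin-type adhesion receptor gene Celsr1 (−0.67 ± 0.06). Slc13a3, Slc13a4 and Slc5a12 had mean levels of 16.8, 32.1 and 11.5. Slc5a2 (−0.77 ± 0.26), Slc5a11 (−0.37 ± 0.08), Pkd2 (−0.64 ± 0.05), Ak1 (−0.55 ± 0.07), Adgrb1 (−0.40 ± 0.10) and Dclk2 (−0.35 ± 0.06) were lower relative to the median gene and did not pass on the spike-in scale, and Adgrl2 was at −0.23 ± 0.08, a sign that turned on the spike-in scale (0.08). The 7 higher relatives were Pkd1l1 (1.39 ± 0.18), a polycystin family member, the adhesion receptor genes Adgre5 (0.67 ± 0.06), Adgrl1 (0.67 ± 0.05), Celsr3 (0.47 ± 0.09) and Adgra2 (0.45 ± 0.10), and the dystrophin complex genes Dtna (0.41 ± 0.12) and Sntb1 (0.24 ± 0.07). Adgre5, Adgrl1 and Adgra2 lie on chromosome 8, whose median gene was at 0.33. In del-cIDR 12 relatives were higher and 11 lower than in WT, where 11.4% and 16.4% of all tested genes were. The largest of these differences were 1.22 ± 0.38 in Slc5a10 and −1.12 ± 0.37 in Slc13a2, at mean levels of 10.9 and 21.7. Sgce was higher by 0.80 ± 0.11, and Slc5a11 was at −0.54 ± 0.08. The adenylate kinase genes Ak7 (−0.69 ± 0.07) and Ak4 (−0.40 ± 0.03) were lower in del-cIDR and lay at 0.08 ± 0.07 and 0.05 ± 0.03 in KO. On the spike-in scale 9 relatives were higher and 2 lower in del-cIDR, where 1836 of all tested genes were higher and 590 lower. Slc5a10 (1.39, limma, adjusted p = 0.0059), Sgce (0.97, 3.37e-07), Slc13a2 (−0.95, 0.0346) and Ak7 (−0.52, 0.0108) still passed there. Slc5a11 (−0.37, 0.132) and Ak4 (−0.23, 0.358) did not.

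Several of the 8 genes are best known from liver, kidney, gut or nerve. Markers of such cells, and of cells that stem cell cultures can hold, are therefore given beside them. In KO 16.7% of all tested genes were lower and 15.4% higher relative to the median gene. On the spike-in scale 652 of 22448 were lower and 6188 higher. None of the 5 hepatocyte markers was tested: their summed level was 2.74 to 15.5 in KO, 2.93 to 9.46 in del-cIDR and 0 to 14.3 in WT libraries, and Serpina1a was at 0 in every library. Of 5 kidney and gut markers 3 were tested and none passed in KO, with a summed level of 766 to 3242 in KO and 434 to 3394 in WT, nearly all of it from Lrp2, and Slc34a1 at a mean level of 0.112. Of 6 fibroblast markers 2 were tested and none passed, with a summed level of 21.8 to 81.5 in KO and 13.5 to 66.8 in WT. All 4 neural markers were tested and 3 were higher in KO on every scale, Pax6 by 1.57 ± 0.11, Nes by 0.86 ± 0.05 and Tubb3 by 0.84 ± 0.07, with a summed level of 1932 to 8235 in KO, 423 to 3025 in del-cIDR and 723 to 4212 in WT. Of the 10 stem cell markers 5 (50%) were lower in KO, Tfcp2l1 the most at −0.61 ± 0.03 and Sox2 at −0.41 ± 0.04. Another 2 (20%) were higher, among them Zfp42 at 0.25 ± 0.04. On the spike-in scale 0 were lower and 2 (20%) higher. Of 4 trophoblast markers 2 were tested and Gata3 was lower in KO (−0.74 ± 0.09, adjusted p = 5.81e-07; −0.43 and 0.0401 on the spike-in scale), with a summed level of 69.7 to 325 in KO, 44.8 to 493 in del-cIDR and 65.2 to 452 in WT. Of 5 primitive endoderm markers 4 were tested, with a median of 0.02 for KO minus WT. Pdgfra was lower (−0.56 ± 0.15, limma, adjusted p = 0.00615, and −0.25 and 0.348 on the spike-in scale). Gata4 (0.26 ± 0.16), Sox17 (0.34 ± 0.38) and Gata6 (−0.22 ± 0.38) did not pass. On the spike-in scale 1 was higher, Gata4 at 0.57 (limma, adjusted p = 0.0365), and 0 were lower. The summed level of these markers was 60.5 to 226 in KO, 40.3 to 320 in del-cIDR and 24.9 to 234 in WT. Of 3 mesoderm markers 2 were tested and none passed, though 1 was higher on the spike-in scale, with a summed level of 56.1 to 221 in KO, 28.6 to 196 in del-cIDR and 29.0 to 164 in WT. In del-cIDR 0 neural markers were higher and 2 lower than in WT, Tubb3 (−0.88 ± 0.07) and Nes (−0.41 ± 0.05). On the spike-in scale Tubb3 passed (−0.71) and Nes did not (−0.24). Of the stem cell markers 1 was higher and 3 lower in del-cIDR, Gata6 was higher (1.04 ± 0.38), and 1 kidney and gut marker was lower. On the spike-in scale only Gata6 (1.21) of these passed. Of all tested genes 11.4% were higher and 16.4% lower in del-cIDR. The part that neural, stem cell, trophoblast or primitive endoderm markers have in the fall of the 8 genes was not tested. In such bulk samples fewer cells with a transcript and less transcript per cell cannot be told apart.

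In structure the 8 genes were large. Their median span was 108663 bases with 22.5 separate exonic stretches, against 23655 bases and 9 over 14619 tested protein-coding genes (GENCODE M21). The span ran from 25234 bases in Slc13a5 to 938404 in Sntg1, and the exonic stretches from 12 in Slc13a5 to 43 in Pkd1l2. The motif GGACT, counted in the sense direction of the longest transcript, occurred 0.431 times per kb in Ak9, 0.491 in Ephx2, 0.603 in Dcdc2a, 1.02 in Sntg1, 1.23 in Adgrg6, 1.35 in Pkd1l2, 1.50 in Slc13a5 and 1.95 in Slc5a1, around a median of 1.04 over the same protein-coding genes. These counts describe letters only and say nothing of methylation.

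For each of the 8, the gene outside the set with the most similar pattern was found by Pearson's correlation of centred log2 levels over the 24 libraries, given as a description since the libraries fall into genotypes. Gnal, the gene of a G protein alpha subunit of olfactory neurons and brain, was most similar both to Dcdc2a and to Slc13a5 (r = 0.983 each), with a difference of −1.16 ± 0.06 for KO minus WT and 0.22 ± 0.06 for del-cIDR minus WT. Cd38, the gene of a surface enzyme that breaks down NAD, was most similar to Slc5a1 (r = 0.969), with −1.53 ± 0.10 in KO and −0.50 ± 0.10 in del-cIDR, so that it too lay lower in both mutants. Gm8258 was most similar to Ak9 (r = 0.982) and to Sntg1 (r = 0.969), at −1.57 ± 0.06 in KO and −0.10 ± 0.06 in del-cIDR. Klhdc7a was most similar to Pkd1l2 (r = 0.974), at −1.31 ± 0.06 and 0.23 ± 0.06. IDs without a name were most similar to Adgrg6 (r = 0.982, −1.53 ± 0.06 in KO and 0.01 ± 0.06 in del-cIDR) and to Ephx2 (r = 0.956, −1.99 ± 0.12 and −0.08 ± 0.12). Each of these most similar genes had a smaller difference in KO than the gene it resembled, though for Ephx2 (−2.07 ± 0.13) the gap lay within the SE. The 8 genes were chosen for large falls, so nothing is read from this.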

How the data were processed

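EU-labelled RNA was measured in 24 libraries, 2 for each of 3 genotypes and 4 labelling times. Per the labels' protocols, RNA was captured with a Click-iT kit before a stranded total RNA library protocol. Per the submitters' processing notes, HISAT2, SAMtools, Picard and GRCm39 were used. Which counter and annotation were used, and whether strand was, is not given in the sources used here. The authors deposited log2 ratios per gene of 20, 40 and 60 min to 10 min of the same genotype, both replicates combined and scaled to spike-in reads. The prefix ki was taken as del-cIDR, the genotype left over. A second deposited table, of repeats, was not used here.

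Each value could be written as the log2 of 2 sums of whole reads per spike-in read, each times 40000 and plus 1 (relative error at most 2.8e-15), so reads per library were solved for (100% of 122679 lines that are not 0). Library A is the one of its group that has more spike-in reads. At 60 min in WT, 7517 genes allowed several splits between both libraries. Where 1 split alone lay close to the median ratio of both libraries it was taken, so such values follow that ratio. In 2834 genes the split stayed unclear, and the group then kept 1 value. None of the 8 genes was among these 2834, but the 8 can be among those with several splits. On simulated data all sums were right, and all splits between libraries in 100% of 687 genes under 100 reads, 96.7% of 578 genes at 100 to 1000 reads and 12.8% of 235 genes above, for which only the sum per group is sure. Genes that reached a mean level of 10 and had reads in 6 or more libraries were fitted with limma 3.58.1 (R 4.3.3, trended prior) on log2(level + 1), a scale that understates changes of low genes, with 1 coefficient per group, and p-values were adjusted by Benjamini-Hochberg over 22448 genes at 0.05. Simulated differences of −2 for KO minus WT were called in 100% of 50 genes, and those of −1 in 93.9% of 49. The simulated reads had 1 fixed spread for all genes, so these rates need not hold for the real libraries. There were 33769 library values of exactly 1 read and 74916 of exactly 2, so mates may have been counted separately and no counting intervals are given.

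The 8 genes, the gene families and the markers were chosen with earlier results of these data known. The genes named were the 8, their nearest tested neighbours by annotated start, genes around the last rank, and the most similar gene for each. Relatives that passed in KO were named, and some of those that passed in del-cIDR. Of the neighbours, 1 is counted but neither named nor drawn here. Gene names and neighbours come from GENCODE M21 (GRCm38), used for names and order only; 925 tested IDs had no name and were not placed. Alternatives were the spike-in scale, a pseudocount of 5, no filter, another centring, no 10 min libraries, and leaving out each library.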

Additional observations from a re-analysis of the deposited data

Results flagged for a closer look

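For Sntg1 the difference between del-cIDR and WT libraries passed a test for change with labelling time (limma F test, adjusted p = 0.038). The differences were −0.52, 0.88, 0.08 and −0.08 from the shortest to the longest labelling. At 10 min the del-cIDR libraries had levels of 48.3 and 55.5 and the WT libraries 149 and 75.6, and at 20 min the del-cIDR libraries had 384 and 577 and the WT libraries 177 and 132. In this comparison 7.82% of tested genes passed. The call for Sntg1 was lost in 13 of 24 fits that left out 1 library. It was also lost with no filter (limma F test, adjusted p = 0.0537) and without the 10 min libraries (0.15).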

How the results depend on the processing

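No paired analysis was possible because the deposited columns combine both replicates and carry no replicate numbers. The KO differences of the 8 genes lay between −2.97 and −1.76 over all alternatives, each past the threshold. These fits reuse the libraries that chose the genes, so nothing further is read from this. The counts over all genes for KO minus WT stayed within 1.5 times, at 6485 to 7829. The direction of these KO calls did not stay, with 6188 higher and 652 lower on the spike-in scale in place of 3462 and 3755. As deposited, on the spike-in scale, 2426 genes differed between del-cIDR and WT in place of 6251. Between del-cIDR and KO 6023 genes differed in place of 10156. Dependence on labelling time was then called in 0 genes for KO and 7592 for del-cIDR, in place of 1 and 1756, and a KO slope difference in 0 in place of 8. Without the 10 min libraries the same 3 counts were 0, 331 and 3, the pseudocount of 5 gave 43 slope differences, and the other centring gave 2 genes with time dependence in KO. Leaving out 1 library gave 0 to 121 genes with time dependence in KO, 805 to 2376 in del-cIDR (the lowest without WT library B of 20 min, 865 and 925 without either del-cIDR library of 20 min) and 2 to 543 slope differences; the highest count in KO and of slopes came without WT library A of 10 min.

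Small differences turned sign. For the slope in KO minus WT, Sntg1 (0.03) was at −0.15 on the spike-in scale, −0.05 with the pseudocount of 5, −0.54 without 10 min and −0.08 to 0.14 with 1 library left out. Slc13a5 (0.04) was at −0.15 and −0.09 on the spike-in scale and without 10 min. Pkd1l2 (−0.05) was at 0.58 without 10 min and −0.13 to 0.03 with 1 library left out; so left out, Slc5a1 (−0.04) was at −0.12 to 0.04 and Adgrg6 (−0.05) at −0.13 to 0.02. No slope of the 8 passed in any setting. For del-cIDR minus WT, Ak9 (−0.05) was at 0.12 on the spike-in scale and −0.13 to 0.03 with 1 library left out, and Ephx2 (0.09) ranged from −0.01 to 0.20. Fig4 for KO minus WT turned to 0.18 on the spike-in scale. The Sntg1 time dependence in del-cIDR was also lost with no filter (adjusted p = 0.0537). The cause of these changes was not tested. Few reads limit the lowest values, down to 6 in Pkd1l2.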

Other observations

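With those nearest neighbours that lie this close, 47 tested genes outside the 8 genes start within 200000 bases of one of the 8 genes, a distance chosen after values were seen. Of these, 14 (29.8%) were lower, 5 (10.6%) higher and 28 not called in KO, with a median of −0.09, beside 16.7% lower and 15.4% higher of all tested genes. On the spike-in scale 4 were lower and 10 higher, where 652 of all tested genes were lower and 6188 higher. Around Ephx2 4 of 6 were lower, among them the kinase gene Ptk2b at −1.35 ± 0.07, and around Slc13a5 4 of 13 were lower, among them the F-box gene Fbxo39 at −1.91 ± 0.23 with a mean level of 28.2. Around Ak9 4 of 6 were lower, which adds Ppil6 at −0.54 ± 0.16 and the sphingomyelinase gene Smpd2 at −0.36 ± 0.08 to Fig4 and Zbtb24; on the spike-in scale none of these 4 passed, with Ppil6 at −0.23, Smpd2 and Zbtb24 at −0.05 and Fig4 at 0.18. Around Pkd1l2 none of 7 was lower and 3 were higher, among them Cmip at 0.46 ± 0.05 and Cenpn at 0.19 ± 0.05, on the chromosome whose median gene was at 0.33. Around Slc5a1 0 of 8 and around Adgrg6 0 of 2 were lower, and no tested gene started that close to Sntg1.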
